A study of Mus musculus with 6 samples.

Results

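The array carried 16181 probes for long intergenic non-coding RNAs (lincRNAs), each named after the chromosome interval and the strand of its transcript. Of these, 5828 lay on an autosome with their midpoint within 20 kb of the midpoint of a probe for a coding transcript (a RefSeq accession that starts with NM_), and they are described here. The rule that chose them uses position alone and no measured value, but it was set with earlier results of these data known. They came from 1680 lincRNAs in 1287 intervals, with a median of 3 and at most 10 probes per lincRNA, and their nearest coding probes were 835 probes of 803 genes. The other 9658 autosomal lincRNA probes with a position lay further away, and the array held 55681 probes in all. Among the 5828 pairs, 482 were within 1 kb, 1491 between 1 and 5 kb, 1405 between 5 and 10 kb and 2450 between 10 and 20 kb. The lincRNA was on the strand of its coding neighbour in 2940 pairs and on the other strand in 2888.

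RNA of immortalized mouse embryonic fibroblasts (MEF) was hybridized to 6 one-colour arrays of 1 slide, with 2 arrays per group. The WT MEF were of the strain W4, the MEF without TIA1 (TIA1 KO) of BALB/c and the MEF without TIAR (TIAR KO) of C57BL/6, so the knockout, the strain and the line that carries it cannot be told apart. The WT and TIAR KO arrays lay in one row of the slide and the TIA1 KO arrays in the other, so row and TIA1 genotype cannot be told apart either. The arrays of a group came from different biological samples by the study's methods. The p-values measure the spread between these few arrays.

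LincRNAs are transcribed from their own intervals between protein-coding genes, are often capped, spliced and polyadenylated like mRNAs, and are usually less abundant. Some act on the transcription of the gene beside them, others act elsewhere, and some intervals named lincRNA on an array are the unannotated end of a neighbouring mRNA. TIA1 and TIAR (gene symbol Tial1) are related RNA-binding proteins that bind U-rich and AU-rich stretches and act in splicing, in translational silencing and in stress granules.

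The sequences of 6 lincRNA probes described below, which rose or fell and whose intervals hold no NM_ probe of their strand, are shown first, read from the deposited array files, with positions on mm9. They are given 5′ to 3′ in the sense of the lincRNA, with capitals for TTTTT (or a longer run of T) and ATTTA, the DNA letters of short U-rich and AU-rich stretches.
lincRNA beside Nup205, chr6:35202961-35203020, plus strand: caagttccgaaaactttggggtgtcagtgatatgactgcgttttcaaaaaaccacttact
lincRNA beside Xkr5, chr8:18918270-18918329, minus strand: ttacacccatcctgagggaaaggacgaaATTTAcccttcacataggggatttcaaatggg
lincRNA beside Ugt8a, chr3:125556646-125556705, minus strand: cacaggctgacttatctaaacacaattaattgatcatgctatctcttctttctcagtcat
lincRNA beside S100a6, chr3:90428082-90428141, plus strand: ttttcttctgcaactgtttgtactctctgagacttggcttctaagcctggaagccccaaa
lincRNA beside Hoxb4, chr11:96175970-96176029, plus strand: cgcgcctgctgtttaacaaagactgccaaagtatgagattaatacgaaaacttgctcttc
lincRNA beside Mttp, chr3:137744343-137744402, plus strand: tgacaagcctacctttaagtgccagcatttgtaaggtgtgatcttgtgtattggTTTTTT

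TTTTT, searched in the sense of the probe only, was in 9.59% of the 5828 lincRNA probes near a gene, in 8.07% of those further away, in 11.9% of the 835 coding probes and in 10.2% of all probes. ATTTA was in 7.31%, 6.74%, 10.66% and 7.71% of the same sets, and at least one of both in 15.9%, 14.2%, 21.1% and 17.0%. Among the lincRNA probes that rose in a knockout, at least one of both was in 8 of 47 (17.0%) for TIA1 KO and in 8 of 39 (20.5%) for TIAR KO. Among those that fell it was in 0 of 14 for TIA1 KO and in 9 of 59 (15.3%) for TIAR KO. A probe of 60 bases samples only a short stretch of its transcript, and a match is not a binding site.

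The genes named by the knockouts were looked at in every array first, as log2 values. One of 2 RefSeq probes of Tia1 read 10.57 and 8.71 in WT, 7.52 and 8.38 in TIA1 KO and 9.75 and 9.77 in TIAR KO. Both TIA1 KO arrays were below all others, with a log2 difference of -1.69 (SE 0.75, limma adjusted p = 0.248), and a second Tia1 probe differed by -1.86 (SE 0.53, adjusted p = 0.150). The remaining Tia1 probe, for an Ensembl transcript, was not well above background in WT and stood at 8.15 and 8.61 in TIA1 KO, above background on 1 of these arrays. A probe of Tial1 read 11.84 and 11.19 in WT, 12.06 and 11.65 in TIA1 KO and 10.23 and 9.86 in TIAR KO. It was lowest in TIAR KO without overlap, at -1.47 (SE 0.27, adjusted p = 0.0339), and the other differed by -2.71 (SE 0.62, adjusted p = 0.0668). No source used here gives the deleted parts, so it is not known which probes lie in them.

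Of 10 fibroblast markers, 8 were above background in WT and 9 in each knockout. Lum was in no group, and Pdgfra, a receptor that marks mesenchymal cells, was not in WT. By the call rule used throughout (limma, Benjamini-Hochberg adjusted p under 0.05 and more than 2-fold), 6 fibroblast markers were higher in TIA1 KO and 7 in TIAR KO. Col3a1, a fibrillar collagen, had means of 9.71, 15.7 and 15.97 in WT, TIA1 KO and TIAR KO, and Acta2, smooth muscle actin, of 13.0, 17.7 and 18.3. The summed log2 values of the fibroblast list were 126 and 125 in WT, 148 and 148 in TIA1 KO and 149 and 150 in TIAR KO, with S100a4 the brightest. Of 6 epithelial markers 2, 1 and 4 were above background in WT, TIA1 KO and TIAR KO, and Cdh1, Krt8 and Krt18 were called higher in TIAR KO. Of 6 macrophage markers 3, 2 and 3 were, with Itgam, the brightest, at a mean of 11.9 in WT, while Ptprc, Emr1 and Lyz2 were in no group. Of 4 endothelial, 4 pluripotency and 4 muscle markers at most 2 were in any group, with Kdr, Nanog and Acta2 the brightest and Cdh5, Zfp42, Myod1 and Myog in none. Sox2, a pluripotency marker, was the brightest of its list in TIA1 KO, at 8.50 and 9.60 against 6.32 and 6.60 in WT, above background on 1 array, with a difference that missed the threshold (adjusted p = 0.0867). In the order WT, TIA1 KO and TIAR KO, with 2 arrays each, the epithelial list summed to 43.5, 44.0, 43.2, 47.2, 49.5 and 49.2 and the macrophage list to 53.4, 51.9, 54.3, 53.2, 54.1 and 53.4. The endothelial list summed to between 32.8 and 34.4, the pluripotency list to between 28.5 and 30.7 and the muscle list to 34.1 and 34.3 in WT and 38.8 to 41.0 in the knockouts. The part of these differences in the lincRNA results was not tested, and in bulk RNA fewer cells of a kind and less RNA per cell cannot be told apart.

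Most lincRNA probes near a gene were dim. A probe counted as measured in a group when the scanner software rated it well above background on both arrays. By this measure 1651 of 5828 (28.3%) were measured in at least 1 group, against 23.8% of the lincRNA probes further away and 78.9% of the coding neighbours, and 3238 (55.6%) were above background on none of 6 arrays. The numbers per array were 1518 and 1914 in WT, 619 and 970 in TIA1 KO and 1615 and 1779 in TIAR KO. The TIA1 KO arrays were thus lowest, without overlap with the other groups, and they also had the highest local background. Its median intensity was 89.5 and 58 on these arrays and between 42 and 52 on the others, and its part in the lower numbers was not tested. A lincRNA that was not well above background in TIA1 KO may therefore have been at a level that the other arrays could measure.

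Whether a lincRNA probe was measured varied with its distance from the gene and its strand. On the strand of the coding probe 66.2% of 219 probes were measured within 1 kb, 41.7% of 681 at 1 to 5 kb, 31.9% of 764 at 5 to 10 kb and 24.0% of 1276 at 10 to 20 kb. Beyond 20 kb the shares on that strand were 26.0% up to 50 kb and 23.0% further out. On the opposite strand the shares ran from 16.3% within 1 kb through 20.1% and 27.0% to 25.0% at 10 to 20 kb. Where the coding probe was itself measured, 75.1% of the same-strand lincRNA probes within 1 kb were, and 36.0% where it was not.

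**Figure D1:**
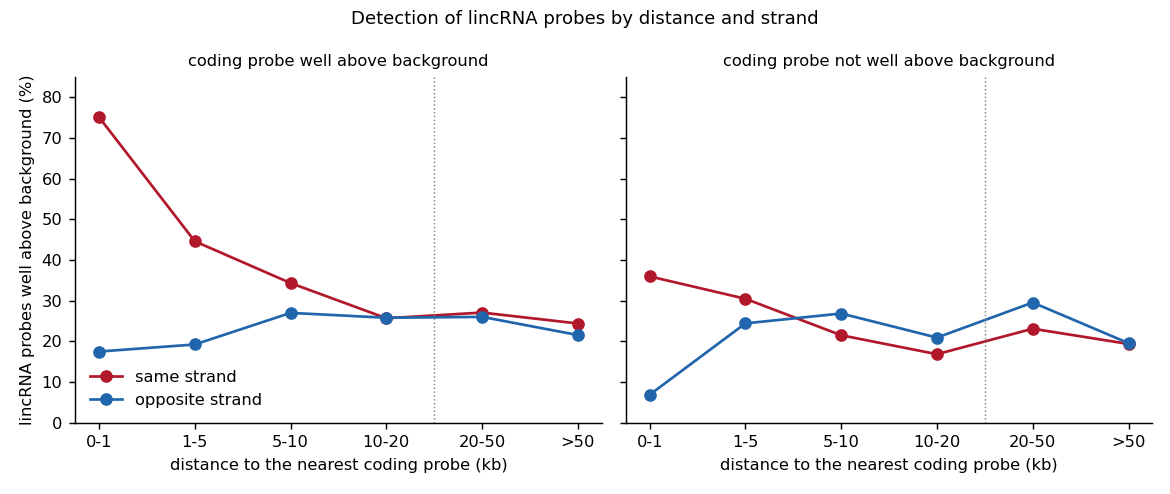
Share of lincRNA probes that were measured in 1 or more groups (y axis, percent) by distance to the nearest coding probe (x axis, kb), for coding probes that were measured (left) or not (right). Beside a measured coding probe the same-strand share fell from 75.1% within 1 kb to 25.7% at 10 to 20 kb, while the opposite-strand share was 17.5% within 1 kb. The dotted line marks 20 kb.

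Some intervals overlapped annotated genes. Of the 5828 probes, 1108 lay in a lincRNA interval that also held a non-lincRNA probe of the same strand, 397 of them one with an NM_ accession and 193 one with an NR_ accession (a RefSeq non-coding transcript). The lincRNA and coding probes overlapped in 54 pairs, and 8 pairs had the identical sequence, so these 8 were repeat measurements of one target. Over their 48 paired values the median gap was 0.215 on the log2 scale, 40 were within 1, and the largest was 2.28, for 9430038I01Rik on the first TIA1 KO array.

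In TIA1 KO against WT, 47 lincRNA probes near a gene rose and 14 fell. The 47 were 0.806% of the 5828, where 1.56% of all probes rose, and the 14 were 0.240%, where 0.767% of all probes fell. The median log2 fold change was -0.15, against -0.12 over all probes. In TIAR KO against WT, 39 rose (0.669%, where 3.31% of all probes rose) and 59 fell (1.01%, where 2.32% of all probes fell), with a median of -0.03 against -0.02. Between the knockouts, 15 were higher in TIAR KO than in TIA1 KO (0.257%, where 1.07% of all probes were) and 37 lower (0.635%, where 1.20% of all probes were). These shares were smaller than those over all probes, of which 45.7% were measured in at least 1 group against 28.3% of the lincRNA probes near a gene. Of the lincRNA probes further away 77 rose (0.797%) and 31 fell (0.321%) in TIA1 KO, and 89 rose (0.922%) and 66 fell (0.683%) in TIAR KO.

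The direction of these counts depended on the scaling. With arrays scaled to a common median 20.8% of the called probes rose in TIA1 KO rather than 77.0%, 18.6% rather than 39.8% in TIAR KO, and 78.6% rather than 28.8% were higher in TIAR KO than in TIA1 KO. With that scaling the median over all probes was -0.68, -0.03 and 0.63 in these comparisons. With scanner values normalized by loess and quantiles 59.5% of the called probes rose in TIA1 KO. With the processed signal scaled to its 75th percentile the medians were 1.98, -0.04 and -1.85, the TIA1 KO comparison made 0 calls by limma although 3288 probes near a gene had an unadjusted p under 0.05, and 0 of the 143 called between the knockouts were higher in TIAR KO. Changes are therefore given relative to the authors' normalization. With 1 array left out, the group it came from has a single array and is assumed to vary like the other group, whose 2 arrays alone give the spread. Without either WT array 0 probes were called in TIA1 KO, without the first TIA1 KO array 31 were and without the second 1073. In TIAR KO 0 were called without its first array, 5 without its second, and 21 and 24 without the first and the second WT array. Between the knockouts 0 were called without either TIAR KO array, 116 without the first TIA1 KO array and 1053 without the second.

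The largest rise of a lincRNA probe in TIA1 KO was beside Rorb. The lincRNA chr19:19005109-19008657_R lay 1.69 kb downstream of the probe of Rorb, a nuclear receptor of neurons and retina. Its log2 values were 6.73 and 6.54 in WT, 11.24 and 11.24 in TIA1 KO and 6.94 and 6.70 in TIAR KO. Both TIA1 KO arrays stood far above all others, by at least 21.0-fold over WT (log2 difference 4.61, SE 0.16, adjusted p = 0.00852). Such a bound was computed where a group was below background on both arrays. Its reference on each array was the higher of the probe's own value and the lowest value rated well above background. In TIA1 KO that lowest value was 6.76 on the first array and 5.79 on the second. Nearly all values so rated lay higher there, above 9.03 and 8.31 respectively. Where a probe's own values were the higher on both arrays, the bound equals the fitted fold. The words "at least" thus follow from this rule and do not mark a guaranteed minimum. The log2 difference given beside a bound is the fitted one and not a measured size. The same holds for a difference between a lincRNA and its neighbour (pair difference) where either was below background in a group compared. Rorb itself rose by 3.13 (at least 8.78-fold, adjusted p = 0.0112), all 3 probes of this lincRNA rose, and the interval also held the NM_ probe of Rorb.

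Beside Xkr5, which codes for a membrane protein of the XK family, the probe of chr8:18895366-18925423_R read 6.55 and 6.51 in WT, 9.68 and 10.12 in TIA1 KO and 6.79 and 6.65 in TIAR KO. Only the TIA1 KO arrays were above background, at least 8.85-fold over WT (3.37, SE 0.21, adjusted p = 0.0189), and Xkr5 rose by 2.67 (adjusted p = 0.0466). The other 4 probes of this lincRNA were not called, one of them with a log2 difference of -0.64. Beside Ugt8a, the enzyme of galactolipid synthesis in myelin, 1 of 3 probes of chr3:125556577-125557102_R read 6.74 and 6.49 in WT, 9.83 and 9.88 in TIA1 KO and 6.56 and 6.52 in TIAR KO. It rose by 3.24 in TIA1 KO (at least 8.03-fold, adjusted p = 0.0140), and Ugt8a differed by 0.05. Another probe of this lincRNA went the other way, from 9.29 and 9.24 in WT to 7.77 and 8.70 in TIA1 KO (-1.03, not called). Beside Gcnt4, a glycosyltransferase of mucin-type O-glycans, 1 of 2 probes of chr13:97697927-97698400_F read 6.90 and 6.47 in WT, 9.79 and 9.81 in TIA1 KO and 6.79 and 6.35 in TIAR KO. It rose by 3.12 in TIA1 KO (at least 7.31-fold, adjusted p = 0.0204), and Gcnt4 by -0.04. For the called probes beside Ugt8a and Gcnt4 TIA1 KO was the high group without overlap. The coding probe was below background in every group, and the difference between the lincRNA probe and its neighbour was called (adjusted p = 0.0333 and 0.0306).

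The lincRNA chr6:35201798-35217831_F lay 5.43 kb downstream of the probe of Nup205, a scaffold protein of the nuclear pore, and rose in both knockouts. Its values were 6.54 and 7.12 in WT, 10.57 and 10.57 in TIA1 KO and 11.03 and 11.32 in TIAR KO. WT was the low group without overlap, at least 13.4-fold below TIA1 KO (3.74, SE 0.25, adjusted p = 0.0204) and at least 20.3-fold below TIAR KO (4.34, SE 0.25, adjusted p = 0.000685). A second probe of the lincRNA, 60 bases away, rose by 1.33 and 1.45. Nup205 differed by -0.73 and -0.63, neither called, and the pair differences of 4.46 and 4.97 were called (adjusted p = 0.0257 and 0.000951). Both were taken against WT values of the lincRNA below background. The interval also held a probe of 1810058I24Rik, a non-coding RefSeq transcript of the same strand.

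Fewer lincRNA probes fell in TIA1 KO. Beside S100a6, a calcium-binding protein of fibroblasts and other cells, the probe of chr3:90425270-90435820_F read 11.41 and 10.83 in WT, 7.18 and 7.84 in TIA1 KO and 10.28 and 10.48 in TIAR KO. TIA1 KO was lowest without overlap and below background (-3.61 against WT, SE 0.35, adjusted p = 0.0374). By the rule above it was at least 12.2-fold under WT, which here equals the fitted fold. Of the 5 probes of this lincRNA 3 were called lower, and the others differed by -3.12 and -3.48. A probe of the lincRNA chr3:90427029-90427674_F, nested in the same interval and strand, read 7.65 and 7.23 in WT and 9.56 and 9.91 in TIA1 KO and was called higher (2.29). The coding probe of S100a6, at values between 17.35 and 18.14, differed by -0.57 (adjusted p = 0.187). The pair difference of -3.04 was called (adjusted p = 0.0371) and rests on TIA1 KO values of the lincRNA below background.

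The lincRNA chr17:22335458-22466521_R overlapped the probe of Zfp994, a zinc finger protein, and the probe 19 bases from it fell by 2.57 on the log2 scale in TIA1 KO (adjusted p = 0.0178), while the coding probe differed by 0.08. Both probes shared 41 positions of the genome, and their sequences differed at 2 of these. Among 29 overlapping same-strand pairs with unbroken probes 26 were identical in the overlap. The fall of the lincRNA near Zfp994 was at least 5.94-fold, and the pair difference of -2.65 missed the threshold (adjusted p = 0.0688). Beside Ccl25, a chemokine of thymus and gut, a probe fell by 2.31 (at least 4.98-fold, adjusted p = 0.0423), with values of 9.52 and 9.40 in WT and 6.88 and 7.41 in TIA1 KO. Ccl25 itself differed by -0.48 in TIA1 KO, not called, and by -1.18 in TIAR KO, called, where this lincRNA fell by 1.88. The lincRNA interval also held probes of Ccl25 on its own strand, an NR_ transcript among them.

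**Figure D2:**
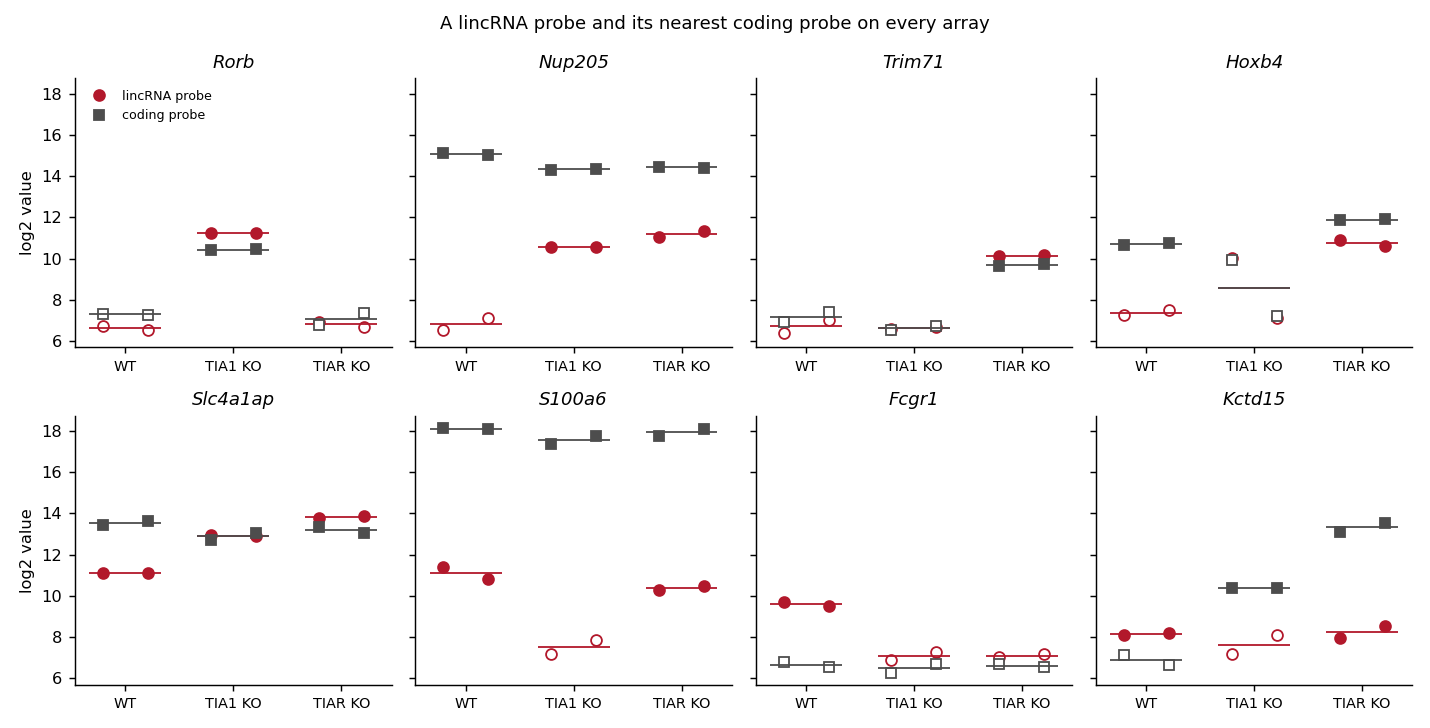
Log2 value (y axis) of 8 lincRNA probes (red circles) and their nearest coding probes (grey squares) on each of the 2 arrays per group (x axis), with lines for group means and open symbols where the probe did not count as measured in that group. The Rorb pair rose in TIA1 KO, the Trim71 pair rose in TIAR KO, while beside S100a6 and Fcgr1 the lincRNA changed and the coding probe did not pass the test, and beside Kctd15 the reverse was seen.

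In TIAR KO the largest rises with a coding neighbour that also rose were at Trim71 and Hoxb4. Trim71 (Lin-41) is a ubiquitin ligase and RNA-binding protein of stem and progenitor cells. The lincRNA chr9:114416254-114416844_R, 3.82 kb downstream of its probe, read 6.37 and 7.04 in WT, 6.60 and 6.68 in TIA1 KO and 10.13 and 10.15 in TIAR KO. TIAR KO alone was above background, at least 10.8-fold over WT (3.44, SE 0.25, adjusted p = 0.00147). Trim71 rose by 2.55 (at least 5.86-fold, adjusted p = 0.00245), as did 3 of 3 probes of the overlapping chr9:114412295-114418384_R, by 2.54 to 3.41. These 3 were below background on both WT arrays, with rises of at least 5.12-fold to at least 9.85-fold. The 5 probes on the opposite strand of that interval were not called. One of them differed by 3.48 in TIA1 KO, where its arrays read 7.30 and 14.28.

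Near Hoxb4, a homeobox gene of the Hoxb cluster, all 3 probes of chr11:96175764-96176029_F rose in TIAR KO, by 2.87 to 3.38. The probes other than the brightest were below background on both WT arrays, with rises of at least 7.29-fold and at least 8.54-fold. The brightest read 7.26 and 7.48 in WT, 10.02 and 7.11 in TIA1 KO and 10.90 and 10.61 in TIAR KO (3.38, SE 0.19, adjusted p = 0.000644). TIAR KO was the high group, and the TIA1 KO arrays disagreed. Hoxb4 rose by 1.19 (adjusted p = 0.0117), less than this lincRNA (pair difference 2.20, adjusted p = 0.00523). The 9 lincRNA probes beside genes of the Hox clusters came from 3 lincRNAs, all in the Hoxb cluster. Of these probes 4 rose in TIAR KO (44.4%, where 3.31% of all probes rose). Among the 4 were the 3 probes near Hoxb4, which belong to 1 lincRNA and are not separate observations. The fourth, beside Hoxb5, was also below background in WT, and 3 of 3 Hox genes rose. In TIA1 KO 1 of 9 rose (11.1%, where 1.56% of all probes rose), beside Hoxb9 (1.55, at least 2.73-fold, adjusted p = 0.0402, above background on 1 of 2 arrays), where Hoxb9 differed by -0.21. The other probes of that lincRNA differed by -0.695 and -0.015, neither called. Its interval also held a probe of Gm53, a non-coding RefSeq transcript of the same strand. The list's median was 0.94 in TIAR KO and 0.47 in TIA1 KO.

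At Slc4a1ap, which codes for the adaptor kanadaptin, 1 of 5 probes of chr5:31856417-31916317_F was called, with 11.11 and 11.13 in WT, 12.96 and 12.89 in TIA1 KO and 13.79 and 13.87 in TIAR KO. The 3 groups did not overlap, with rises of 1.81 (adjusted p = 0.0277) and 2.71 (adjusted p = 0.000689), and Slc4a1ap was not called. At Snx6, a sorting nexin of the retromer, the lincRNA interval chr12:55844075-55898175_R held the coding probe itself. Of its 5 probes only the one 5.01 kb upstream was called, with 12.57 and 12.74 in WT, 11.15 and 11.32 in TIA1 KO and 9.81 and 9.84 in TIAR KO. It fell by 2.83 in TIAR KO (adjusted p = 0.000685), and Snx6 differed by 0.04. A probe of chr12:55846405-55846628_R, 871 bases from another Snx6 probe (log2 differences -0.14 in either knockout, not called), rose instead in both knockouts, by 2.23 and 2.56, from 12.17 and 12.25 in WT.

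Several falls in TIAR KO were on the strand opposite the gene. Beside Fcgr1, the high-affinity IgG receptor of myeloid cells, all 5 probes of chr3:96074625-96086375_F fell in TIAR KO and 2 of them in TIA1 KO. The one with the largest fall read 10.43 and 10.04 in WT, 7.16 and 7.95 in TIA1 KO and 7.05 and 6.76 in TIAR KO. WT was the high group without overlap, at least 10.1-fold over TIAR KO (-3.33, SE 0.21, adjusted p = 0.000936), and the same probe missed the threshold in TIA1 KO (-2.68, adjusted p = 0.0607). Fcgr1 itself was below background in every group, and the lincRNA interval also held a probe of an Ensembl transcript on the lincRNA's own strand. Beside Mttp, the transfer protein of lipoprotein assembly, 6 probes of 2 overlapping opposite-strand lincRNAs fell, the largest fall being 2.35 (adjusted p = 0.00167). Its values were 10.63 and 10.42 in WT, 10.49 and 9.13 in TIA1 KO and 8.29 and 8.05 in TIAR KO, with TIAR KO lowest, and Mttp differed by -0.03. Opposite Bag4, a co-chaperone, the single probe of chr8:26870059-26870530_F read 10.02 and 10.32 in WT, 8.22 and 6.80 in TIA1 KO and 7.50 and 7.0 in TIAR KO. WT was highest, the probe fell by 2.92 in TIAR KO (adjusted p = 0.00192), and Bag4 differed by -0.56. Opposite Smim10l1, which codes for a small membrane protein, 1 of 10 probes of chr6:133054025-133069850_R read 9.12 and 9.11 in WT, 7.55 and 8.97 in TIA1 KO and 6.61 and 6.39 in TIAR KO. TIAR KO was lowest, with a fall of 2.62 (at least 6.13-fold, adjusted p = 0.000948), with Smim10l1 at 0.76 and not called. The adjacent probe of this lincRNA read 9.56 and 9.09 in WT and 10.04 and 9.73 in TIAR KO (0.56, not called).

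On the strand of Slc7a5, the large neutral amino acid transporter, 5 probes of 2 overlapping lincRNAs fell in TIAR KO by 1.07 to 2.34 and 3 of these in TIA1 KO. Those of chr8:124355710-124401160_R were below background on both TIAR KO arrays, with falls there of at least 2.11-fold to at least 5.06-fold. The probe with the largest fall in TIA1 KO read 9.25 and 8.92 in WT, 6.66 and 6.68 in TIA1 KO and 7.35 and 7.19 in TIAR KO (-2.42, SE 0.19, adjusted p = 0.0255). WT was highest without overlap, by at least 5.15-fold over TIA1 KO, and Slc7a5 differed by -0.20 and -0.53, neither called. At Frmd8, which codes for a binding partner of the iRhom proteins, 1 of 10 probes of chr19:5771425-5848475_F fell in TIAR KO (-1.77, SE 0.31, adjusted p = 0.0280) while Frmd8 rose (1.08, adjusted p = 0.0179). This was the only pair in TIAR KO whose members were called in opposite directions, with a pair difference of -2.85 (adjusted p = 0.00773). The lincRNA read 11.28 and 10.64 in WT, 11.89 and 11.84 in TIA1 KO and 9.50 and 8.87 in TIAR KO. Its interval held probes of Malat1 and Neat1 on the other strand.

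**Figure D3:**
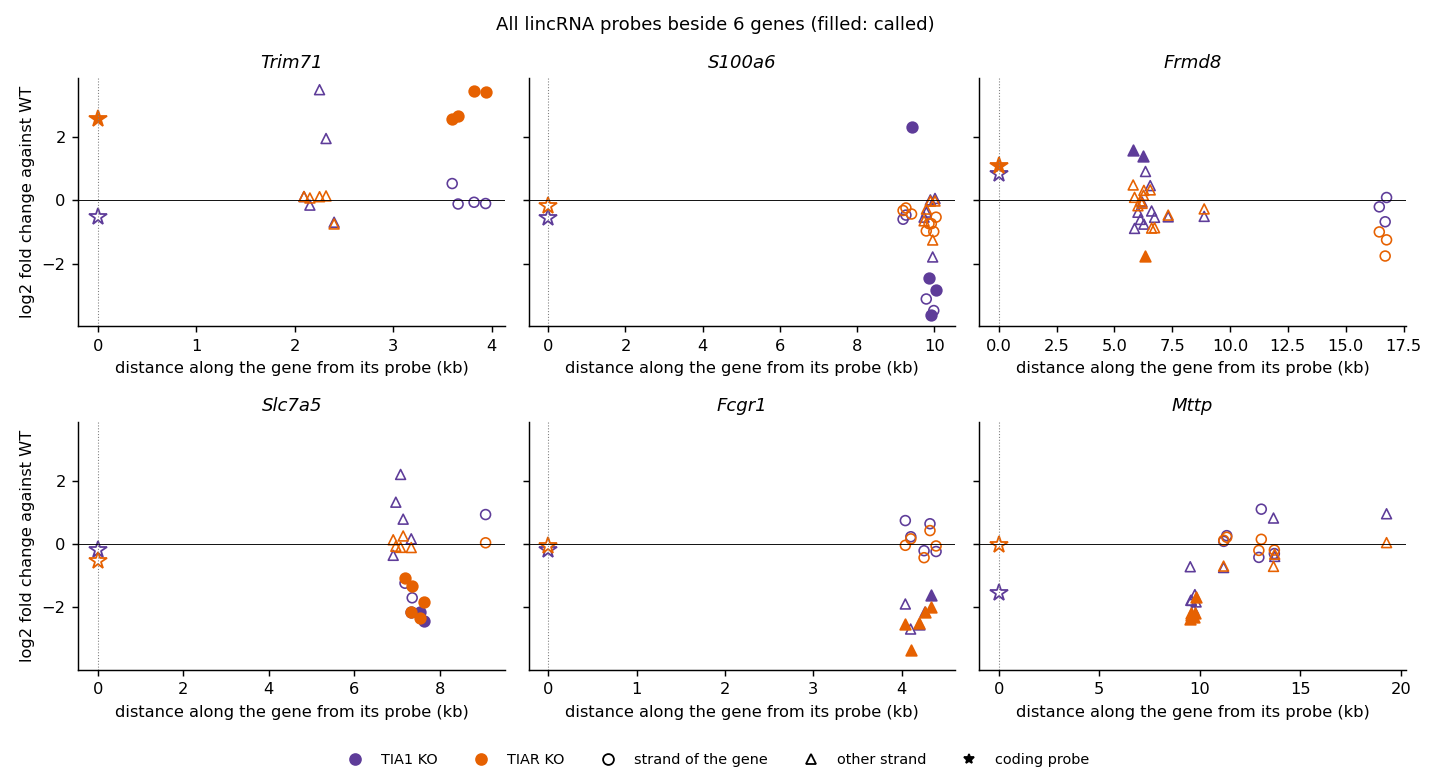
Log2 fold change against WT (y axis) of every lincRNA probe near 6 genes by its distance along the gene from the coding probe (x axis, kb), for TIA1 KO (purple) and TIAR KO (orange), with circles for the strand of the gene, triangles for the other strand, stars for the coding probe and filled symbols for called changes. Near Trim71 4 probes on the strand of the gene rose in TIAR KO, and near S100a6 1 probe rose among 3 that fell in TIA1 KO.

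Of 75 lincRNA probes beside genes of interferon and inflammation 3 rose and 3 fell in TIAR KO, 4.0% each way, where 3.31% of all probes rose and 2.32% fell. In TIA1 KO 0 rose and 1 fell (1.33%, where 0.767% of all probes fell). The 3 that rose, by 1.04 to 1.87, were opposite Irf1, a transcription factor of the interferon response. They were below background on both WT arrays, so these rises are not measured sizes. The nearest Irf1 probe was dim, between 6.54 and 7.38 over the arrays, and differed by 0.32, not called. A second Irf1 probe rose by 1.06 (adjusted p = 0.0157). The lincRNA probes that fell were beside Ccl25 and Isg15, an interferon-induced ubiquitin-like protein. None were called in either knockout among 26 beside cell cycle and p53 genes, 25 beside imprinted genes, 4 beside extracellular matrix genes and 4 beside growth factor and Wnt genes (limma, as above). The medians of these lists, that of the Hox genes included, lay between -0.37 and 0.94.

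Among lincRNAs with at least 2 probes near a gene, 44 had a called probe in TIA1 KO, 8 of them at least 2 and 3 all, and 52 in TIAR KO, 22 of them at least 2 and 9 all. No lincRNA had probes called in both directions within one comparison. Calls were on the strand of the gene for 34 of 47 that rose and 12 of 14 that fell in TIA1 KO, and for 28 of 39 and 31 of 59 in TIAR KO. The coding neighbour was called the same way for 7 of the 47 (beside Dynap, Rorb and Xkr5) and 1 of the 14 (Ccdc122) in TIA1 KO. In TIAR KO it was for 12 of the 39 (Dynlt1c, Hoxb4, Hoxb5, Ptgs1, Rnf150 and Trim71) and 14 of the 59, among them those beside Ccl25, Dynap and Isg15. Of the 835 coding neighbours themselves 2.16% rose and 0.958% fell in TIA1 KO, and 7.07% rose and 4.31% fell in TIAR KO. At Dynap, which codes for a dynactin-associated protein, 3 of 3 lincRNA probes and Dynap itself rose in TIA1 KO and fell in TIAR KO, but they lay within 129 bases of its probe and 1 had its sequence.

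The pairing of changes was then described over all pairs. Across the 5828 pairs the correlation of the lincRNA's log2 fold change with that of its nearest coding probe was r = 0.077 in TIA1 KO, 0.125 in TIAR KO and 0.099 between the knockouts. On the same strand within 1 kb it was 0.576, 0.470 and 0.568 over 219 pairs of 79 coding probes. At 1 to 5 kb it was 0.217, 0.432 and 0.292 over 681 pairs, at 5 to 10 kb 0.067, 0.209 and 0.185 over 764, and at 10 to 20 kb 0.042, 0.064 and 0.021 over 1276. On the opposite strand it was 0.136, 0.312 and 0.215 over 263 pairs within 1 kb and between -0.031 and 0.031 at 1 to 20 kb. Pairs share coding probes, arrays and, within 60 bases, sequence, so they are not independent and no p-value is given. Computed from 1 array per group, the same-strand value within 1 kb ranged over the 4 choices from 0.408 to 0.544 in TIA1 KO and from 0.295 to 0.418 in TIAR KO. Among bright pairs (cut at a mean log2 of 8, added after seeing the data) the strand contrast within 1 kb was not kept by Pearson r. Opposite-strand r was 0.674, 0.710 and 0.842 over 22 pairs of 11 coding probes. Same-strand r was 0.730, 0.467 and 0.727 over 108 pairs. By Spearman rank correlation the opposite-strand values were 0.590, 0.274 and 0.538 and the same-strand values 0.627, 0.504 and 0.514. By rank the contrast was thus kept in TIAR KO. At 1 to 5 kb bright opposite-strand r was 0.305, 0.174 and 0.319, below the same-strand value in each comparison.

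**Figure D4:**
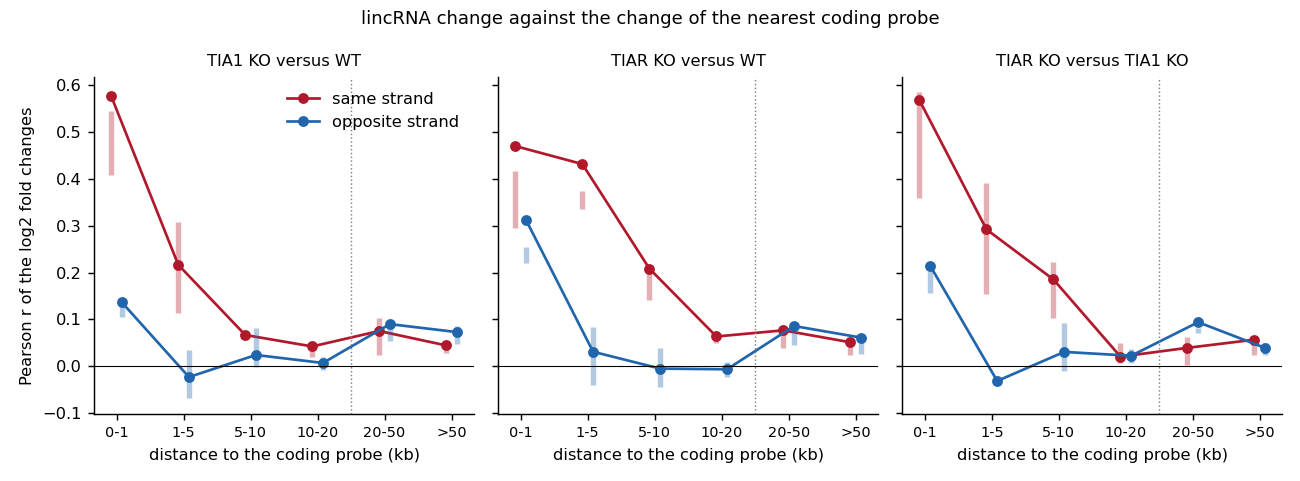
Pearson r (y axis) between the log2 fold changes of a lincRNA probe and its nearest coding probe by distance (x axis, kb) and strand, in 3 comparisons, with bars for the range over the 4 choices of 1 array per group and a dotted line at 20 kb. Same-strand r was 0.576, 0.470 and 0.568 within 1 kb and 0.042, 0.064 and 0.021 at 10 to 20 kb.

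The same-strand pairs within 5 kb were divided by whether the lincRNA interval held an NM_ probe of its strand. In the 275 pairs where it did, r was 0.581, 0.488 and 0.583, and 62.5% of the lincRNA probes were measured. In the 625 where it did not, r was 0.103 in TIA1 KO, 0.423 in TIAR KO and 0.214 between the knockouts, and 41.1% were measured. For probes downstream of the coding probe r was 0.252, 0.418 and 0.306 over 698 pairs, and for those upstream 0.495, 0.551 and 0.476 over 193. With only the brightest probe of each interval the same-strand value within 1 kb was 0.636, 0.505 and 0.681.

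**Figure D5:**
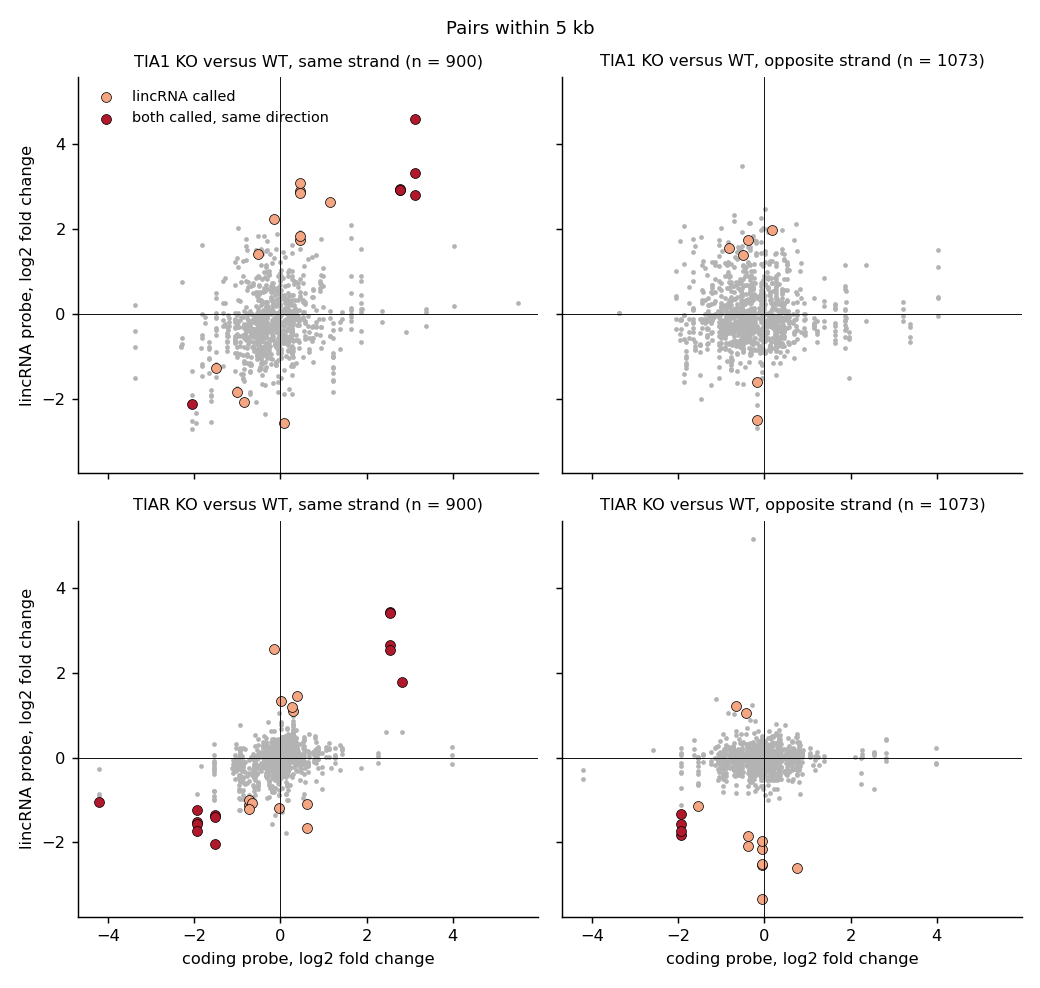
Log2 fold change of the lincRNA probe (y axis) against that of its nearest coding probe (x axis) for pairs within 5 kb, by comparison and strand. Orange points are called lincRNA probes and red points pairs called in the same direction, which in TIA1 KO were all on the same strand and in TIAR KO were on either strand. The red opposite-strand points in TIAR KO all lay beside a single coding gene.

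Whether the lincRNA changed differently from its neighbour was tested directly on the difference of both log2 values per array. In TIA1 KO the lincRNA changed more upward than its neighbour in 55 pairs (0.944%, where 0.988% of all autosomal pairs did) and more downward in 69 (1.18%, where 2.29% did). In TIAR KO these counts were 205 (3.52%, where 4.11% did) and 316 (5.42%, where 6.63% did), and between the knockouts 27 (0.463%, where 0.969% did) and 31 (0.532%, where 0.743% did). With arrays scaled to a common median most of those in TIAR KO were upward instead. The counts moved with the processing, as given in the last section. In TIAR KO only the coding probe was called in 137 of the 205 and 262 of the 316, and the lincRNA was below background in 126 and 212 of them. In TIA1 KO only the coding probe was called in 10 of the 55 and 47 of the 69, and neither probe in 32 and 18. Between the knockouts only the coding probe was called in 20 of the 27 and 16 of the 31.

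Pairs described above are left out here, among them that of Nup205 (4.46 in TIA1 KO), whose coding probe was not called. Among other named pairs, those with the largest differences, both probes being measured in at least 1 group, were mostly beside genes that changed strongly. Kctd15, a BTB-domain protein of neural crest development, read 7.11 and 6.65 in WT, 10.37 and 10.37 in TIA1 KO and 13.11 and 13.53 in TIAR KO. The lincRNA 8.90 kb downstream read 8.11 and 8.22, 7.19 and 8.08, and 7.98 and 8.52 in the same groups. Kctd15 was below background on both WT arrays and rose at least 78.0-fold in TIAR KO (log2 difference 6.44, adjusted p = 0.000223). The lincRNA differed by 0.09, and the pair difference of -6.36 (SE 0.30, adjusted p = 0.000372) likewise rests on a WT level of Kctd15 that was not measured. Crabp2, a carrier of retinoic acid, fell by 6.18 in TIAR KO and Tmem37, a membrane protein related to calcium channel subunits, fell by 5.59, while their lincRNAs differed by 0.30 and -0.03 (pair differences 6.48 and 5.57, adjusted p = 0.000282 and 0.000432). Isg15 fell by 4.21 (adjusted p = 0.000221), and the lincRNA opposite it read 7.34 and 7.62 in WT and 10.50 and 7.49 in TIAR KO, so that the 2 TIAR KO arrays disagreed. In TIA1 KO 1 of 3 probes of a lincRNA beside Eef1akmt2, a lysine methyltransferase of elongation factor 1A, rose by 2.67 (at least 5.88-fold, adjusted p = 0.0308) while the gene differed by -0.69. The pair difference of 3.35 (adjusted p = 0.0362) was again taken against WT values of this probe below background. Tmem181a rose by 2.92 in TIA1 KO (adjusted p = 0.0183) with its lincRNA at -0.60 (pair difference -3.51, adjusted p = 0.0358). This lincRNA was below background on both TIA1 KO arrays, so neither its change nor the pair difference is a measured size.

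The lincRNA probes nearest the limit of 20 kb were dim or moderate on both sides of it. Just inside, at 19993 and 19997 bases from Fis1 and Phf14, their log2 fold changes in TIA1 KO were 0.51 and -0.18. Just outside, at 20002 and 20024 bases from Enc1 and Rnf130, they were 0.02 and 0.73. No lincRNA probe had Tia1 or Tial1 as its nearest coding neighbour within 20 kb.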

How the data were processed

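Total RNA of immortalized MEF was labelled with the One-Color Low Input Quick Amp kit and hybridized to Agilent mouse 8x60 arrays, which were scanned and read with Agilent Feature Extraction 10.7.3.1. The log2 values used here are the authors' normalized values, deposited as a series matrix. By the study's methods these came from normexp background correction (offset 50), a log2 transform, loess within each array and an adjustment of quantiles between arrays, and the submitters' notes name limma. The paper also describes bringing the arrays to one level by their mean gene signal, without placing this among the other steps. The spots and the reference of the loess step, and any further centring, are not given in the sources used here. Each column correlated at r = 0.997 to 0.999 with the scanner values of its own array and had a median of 7.22 or 7.23. The deposited scanner files gave the intensity of each spot, its local background and the well-above-background rating, and probe names, positions (mm9) and sequences. With 2 arrays per group the precision is limited.

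A lincRNA probe was joined to the coding probe with the nearest midpoint. Each comparison was fitted on its own 4 arrays with limma 3.58.1 (lmFit and eBayes, R 4.3.3) with Benjamini-Hochberg adjustment over 55681 probes, and a call needed an adjusted p under 0.05 and a log2 change above 1 either way. The difference between lincRNA and coding probe per array was fitted likewise over 15486 autosomal lincRNA probes. Gene symbols were updated through a RefSeq GRCm38.p6 table, in which 5695 of the 5828 coding neighbours matched. The scripts were tested on simulated data. Python 3.11.15 with numpy 2.4.6, pandas 2.3.3 and matplotlib 3.10.9 was used for joins and plots.

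Named lincRNAs were the 5 largest called rises and falls per knockout (3 between the knockouts) that were well above background in the higher group, 1 probe per interval. To these were added the called pairs in opposite directions, up to 4 pairs per knockout with the largest called difference, the largest call of each gene list, calls in opposite directions in the knockouts, and the probes next to the distance limit. Others named (beside Irf1, Ptgs1, Rnf150, Dynlt1c and Ccdc122, second probes near named genes) were chosen after their values were seen. The members and lists were chosen with earlier results of these data known. Alternatives tried were other sources, background corrections and scalings of the values, filters on dim and outlier spots, other fits, each array left out, 5 kb, and 1 probe per interval. Probes on X and those without a position were not used. The probes beside 1 coding gene are counted in the totals and are not reported by name here.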

Additional observations from a re-analysis of the deposited data

Results flagged for a closer look

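The change in TIAR KO differed from that in TIA1 KO, tested directly between the knockouts with limma, for the 3 probes of the lincRNA at Dynap, which were called in opposite directions against WT. All 3 were below background on both TIAR KO arrays, and they were lower there than in TIA1 KO by bounds of at least 19.2-fold to at least 31.6-fold (log2 differences -4.26, -4.33 and -4.98). The last of these probes read 8.82 and 8.84 in WT, 11.80 and 11.74 in TIA1 KO and 6.98 and 6.60 in TIAR KO, and Dynap, also below background in TIAR KO, was at least 19.5-fold lower (-4.29). The Dynap probes lie within 129 bases of the coding probe and 1 has its sequence, so they are not separate observations of a lincRNA.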

How the results depend on the processing

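All 50 named log2 changes kept their sign under every alternative run, and 0 kept their call under all of them. Of 699 alternative values 485 kept the call and 214 lost it. With 1 array left out, 1 group has a single array, which is assumed to vary like the other group, so these fits rest on 3 arrays. The call was lost for 33 of 33 values without TIAR KO replicate 1, 28 of 33 without TIAR KO replicate 2, 24 of 39 without either WT array and 12 of 28 without TIA1 KO replicate 1. With all arrays kept, it was lost for 31 of 50 with the replicate block, 27 of 50 with the 75th percentile scaling, 20 of 50 with treat, 6 of 50 with all 3 groups in 1 fit and 4 of 50 with a common median. The causes were not tested.

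For TIA1 KO against WT, the 61 calls became 0 with the 75th percentile scaling, 794 with a common median, 106 with dim probes left out, 241 with all 3 groups in 1 fit, 10 with treat, 25 within 5 kb and 19 with 1 probe per interval. Leaving out 1 array gave 0 to 1073 calls. For TIAR KO, the 98 became 55 with 1 fit, 24 with treat, 40 within 5 kb, 40 with 1 probe per interval and 0 to 24 with 1 array left out. Between the knockouts, the 52 became 143 (75th percentile), 383 (common median), 83 (dim left out), 184 (1 fit), 19 (treat), 23 (5 kb), 14 (1 per interval) and 0 to 1053 (1 array left out).

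For the difference between lincRNA and neighbour in TIA1 KO, the 124 calls became 325 with scanner values at offset 50, 332 at offset 16, 0 with the 75th percentile, 707 with a common median, 58 with dim probes left out, 477 with 1 fit, 5 with treat, 219 with only coding probes well above background as neighbours, 23 within 5 kb, 36 with 1 probe per interval and 0 to 1888 with 1 array left out. In TIAR KO the 521 became 292 with the 75th percentile, 149 with dim probes left out, 214 with 1 fit, 128 with treat, 115 within 5 kb, 118 with 1 probe per interval and 140 to 310 with 1 array left out. The common median put 62.8% of these upward, against 39.3%. Between the knockouts the 58 became 189, 165, 284 and 139 under the same 4 scanner settings (offset 50, offset 16, 75th percentile, common median), 396 with 1 fit, 0 with treat, 201 with neighbours above background, 11 within 5 kb, 19 with 1 probe per interval and 0 to 1508 with 1 array left out.

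The correlation over pairs (0.077, 0.125 and 0.099) was 0.257, 0.237 and 0.354 with dim probes left out, 0.159, 0.256 and 0.189 within 5 kb, and, as settings added after seeing the data, 0.326, 0.224 and 0.392 for bright pairs and 0.138, 0.212 and 0.165 on the same strand. It was 0.115 in TIA1 KO with the 75th percentile and 0.065 between the knockouts with a common median. With 1 array left out it was 0.051 to 0.088, 0.097 to 0.121 and 0.061 to 0.116.

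With the replicate block limma made 0 calls in TIA1 KO (997 probes at an unadjusted p under 0.05), 66 in TIAR KO and 0 between the knockouts (737), and 0, 462 and 0 for the pair differences (1169 and 1010 unadjusted where 0 were called). Same-numbered arrays deviated together at r = 0.072, 0.025 and -0.047, so the numbers were not taken to pair the samples.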
